A study of Mus musculus with 30 samples.

Results

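The effect of the lowest dose of cannabidiol (CBD) after the longer exposure was measured in mHypoA-2/12 cells treated with 0.325 µM of CBD for 24 h (libraries A25, A26 and A27) and in cells given vehicle for 24 h (libraries A28, A29 and A30). These 6 libraries were chosen by their treatment labels, CBD0.325_24h and CTR_24h, out of 30 libraries in the series, and all genes were examined. The series holds 10 groups of 3 libraries, namely vehicle and 4 doses of CBD after 6 h and after 24 h. mHypoA-2/12 is 1 immortalized mouse cell line made from adult hypothalamus, so that the replicates are cultures of a single line and not animals. All groups, the vehicle included, contained 0.1% DMSO, and CBD was the difference between them. Reads came from the 3′ ends of polyadenylated transcripts (QuantSeq 3′ mRNA-Seq), and the level of a gene is given as CPM, its reads relative to all reads on genes of the library, scaled with TMM.

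CBD is a phytocannabinoid of *Cannabis sativa* that binds the classical cannabinoid receptors weakly and has been described to act on ion channels, serotonin and nuclear receptors and on enzymes that break down endocannabinoids. Acute-phase proteins are secreted defence proteins whose genes are switched on by inflammatory cytokines, mainly through the transcription factors NF-kB, STAT3 and C/EBP. Serum amyloid A, lipocalin 2, the interleukin-1 receptor antagonist, CXC chemokines and stromelysin or collagenase genes belong to this inducible secretory programme, and it is active in fibroblasts, glia and epithelia as well as in the liver. Dual-specificity phosphatases such as DUSP1 end the activity of the MAP kinases that help to induce it.

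Between 3506651 and 4420675 reads per library lay on genes with CBD, and between 2942410 and 4162843 with vehicle. The label of hypothalamic neurons was checked against marker genes. Of 20 neuronal markers, 9 had enough reads to be tested. Among them were *Ncam1* (234 to 308 CPM over the 6 libraries), *Tubb3* (43.2 to 55.7 CPM) and *Eno2* (33.4 to 42.5 CPM). *Nefh*, *Dcx* and *Gad1* had 0 reads in the 6 libraries. A count of 0 allows 3 counted reads or 0.136 CPM, but it does not bound the expression of a gene, since *mt-Co2*, *mt-Co3*, *mt-Atp8* and *mt-Nd4l*, mitochondrial genes that every cell uses, also had 0 counted reads. Summed over the neuronal list, the level was 418 to 465 CPM with CBD and 447 to 517 CPM with vehicle, and all 9 tested markers had a log2 fold change below 0 (median −0.24). Summed over 14 markers of fibroblasts and mesenchyme, with *S100a4*, *Vim*, *Col1a2* and *Col1a1* at the head, it was 10043 to 10466 CPM with CBD and 10927 to 11365 CPM with vehicle. *S100a4*, a calcium-binding protein, was at 1969, 2154 and 2761 CPM with CBD and at 2360, 3396 and 2670 CPM with vehicle, with overlap. The astrocyte markers *Gfap* and *Aqp4* and the microglial markers *Aif1*, *Itgam*, *Adgre1* and *C1qa* had 0 reads. Other members of these lists had reads, such as *Sox9* (141.5 to 210.5 CPM over the 6 libraries) and *Tmem119* (268 to 315 CPM). Summed, the astrocyte list was at 266 to 341 CPM with CBD and at 286 to 312 CPM with vehicle. The microglial list was at 300 to 317 CPM and at 301 to 343 CPM. The mesenchymal sum did not overlap between the groups, and the part of any of these lists in the results was not tested. No single marker in the 6 cell type lists had an unadjusted p below 0.05 between CBD and vehicle (0 genes). Since mesenchymal markers were abundant and the neuronal markers were mixed, some with reads and some without, the cells are called here by the name of the line.

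After 24 h at 0.325 µM of CBD, 8 genes of 12118 tested were differentially expressed at a false discovery rate (FDR) below 0.1 (0.066% of genes, edgeR, quasi-likelihood test, Benjamini-Hochberg adjustment). Transcripts of 6 genes rose (0.0495%), namely *Saa3*, *Il1rn*, *Dusp1*, *Mmp13*, *Cxcl5* and *Lcn2*, by 1.73-fold to 2.18-fold. Transcripts of 2 genes, *mt-Tq* and *Gm17334*, fell (0.0165%), to 0.444 and 0.456 of the vehicle level. Of the 6 genes that rose, 5 encode secreted proteins, and *Dusp1* encodes a nuclear phosphatase. In each of the 8 genes the 3 CBD libraries did not overlap the 3 vehicle libraries. Over all genes, the CBD libraries lay wholly above vehicle in 799 (6.59%) and wholly below it in 807 (6.66%). An unadjusted p below 0.05 was found for 1009 genes (8.33%), 463 of them higher (3.82%) and 546 lower (4.51%) with CBD. The median log2 fold change over all genes was −0.01.

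The promoters of the genes that rose together are shown here because 3 of them encode acute-phase proteins and 1 a collagenase whose transcription is known to be driven by C/EBP and AP-1 factors. The RefSeq table of promoter windows (GRCm38.p6, 250 bases before to 50 bases after the start of the transcript, read 5′ to 3′ on the strand of the gene) held 7 windows for 5 of the 8 called genes, and *Cxcl5*, *mt-Tq* and *Gm17334* were without an entry. Only the windows that held C/EBP or AP-1 letters are printed, so that of *Dusp1* and the other windows of *Il1rn* are not. Capitals mark 4 motifs, searched on both strands. The C/EBP motif was TTGCNNAA, the AP-1 motif was TGANTCA, the NF-kB motif was GGGANTTTC and the TATA box was spelled TATAAA.
Saa3 (chr7:46715627-46715926, minus strand): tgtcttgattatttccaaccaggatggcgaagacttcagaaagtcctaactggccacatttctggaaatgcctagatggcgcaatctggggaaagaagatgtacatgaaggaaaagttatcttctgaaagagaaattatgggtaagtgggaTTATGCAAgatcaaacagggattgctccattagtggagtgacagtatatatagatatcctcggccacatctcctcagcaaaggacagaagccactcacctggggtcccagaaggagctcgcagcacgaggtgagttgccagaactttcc
Lcn2 (chr2:32387690-32387989, minus strand): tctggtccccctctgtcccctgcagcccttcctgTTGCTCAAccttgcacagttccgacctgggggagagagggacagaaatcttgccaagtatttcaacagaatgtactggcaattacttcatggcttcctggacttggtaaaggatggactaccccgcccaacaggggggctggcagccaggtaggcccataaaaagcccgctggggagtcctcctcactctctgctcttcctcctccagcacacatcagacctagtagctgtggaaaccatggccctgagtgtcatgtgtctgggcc
Il1rn (chr2:24336610-24336909, plus strand): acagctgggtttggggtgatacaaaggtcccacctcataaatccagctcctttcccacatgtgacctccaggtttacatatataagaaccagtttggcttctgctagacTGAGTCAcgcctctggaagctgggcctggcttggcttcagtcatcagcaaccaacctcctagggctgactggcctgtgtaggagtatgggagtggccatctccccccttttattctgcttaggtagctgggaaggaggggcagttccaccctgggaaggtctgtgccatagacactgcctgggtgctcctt
Mmp13 (chr9:7272264-7272563, plus strand): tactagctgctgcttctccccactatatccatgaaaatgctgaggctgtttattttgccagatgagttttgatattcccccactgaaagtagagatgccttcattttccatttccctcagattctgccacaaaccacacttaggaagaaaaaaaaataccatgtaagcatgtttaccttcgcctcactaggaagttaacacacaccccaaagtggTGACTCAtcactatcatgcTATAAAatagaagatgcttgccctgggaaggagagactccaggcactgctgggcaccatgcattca
The C/EBP letters stood in the windows of *Saa3*, 99 bases before the start, and *Lcn2*, 216 bases before the start, and in 10.8% of the 32851 windows of all genes. The AP-1 letters stood in the first window of *Il1rn*, 141 bases before the start, and in *Mmp13*, 35 bases before the start and followed by a TATA box, while 7.81% of all windows held them. The TATA box letters stood in 2 of the 7 windows (13.6% of all), and the NF-kB letters in 0 of them (1.11% of all). Besides *Mmp13*, the TATA letters were in an *Il1rn* window not printed, on the other strand (TTTATA) and 14 bases after the start. The window of *Dusp1* held none of the 4 motifs as spelled. These matches are letters in a window, and binding of the factors was not measured.

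*Saa3* (ENSMUSG00000040026, chromosome 7, 46711998 to 46715700 of GRCm38, the build of all positions given here, while the reads were mapped to GRCm39), which encodes serum amyloid A3, an acute-phase protein made outside the liver, was the gene with the smallest FDR. Its level was 1154, 1000 and 805 CPM in the CBD libraries A25, A26 and A27, and 522, 449 and 388 CPM in the vehicle libraries A28, A29 and A30. The lowest CBD library thus lay above the highest vehicle library by more than the whole range of the vehicle group. The means were 986 ± 175 CPM (SD, n = 3) with CBD and 453 ± 67.4 CPM (SD, n = 3) with vehicle, a log2 fold change of 1.12 (standard error 0.15, edgeR FDR = 0.000504). Within each group the order of the libraries was that of their read totals, but the vehicle library A28, with 4162843 reads, lay below the CBD library A27, with 3506651 reads. With the log2 read total as a covariate the log2 fold change was 1.10 (edgeR FDR = 0.0060).

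*Il1rn* (ENSMUSG00000026981, chromosome 2, 24336853 to 24351494), the natural antagonist that blocks the receptor of interleukin-1, was at 176, 162 and 118 CPM with CBD and at 83.0, 74.6 and 78.2 CPM with vehicle. The vehicle libraries lay close together, and A27 was the CBD library nearest to them. The log2 fold change was 0.95 (standard error 0.16, edgeR FDR = 0.00838). *Lcn2* (ENSMUSG00000026822, chromosome 2, 32384633 to 32388252), a secreted carrier of bacterial siderophores and a common marker of inflammatory activation, was at 96.7, 78.5 and 73.7 CPM with CBD and at 42.2, 53 and 49.1 CPM with vehicle. A25 was the highest of the CBD libraries, and no vehicle library reached the lowest of them (edgeR FDR = 0.0872, log2 fold change 0.79 with a standard error of 0.16).

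These 3 genes belong to a list of 21 acute-phase and secreted defence proteins, of which 15 were tested. The list was chosen with earlier results of these data known, so its counts and its sum are no independent evidence. Of the 15, 3 rose, 0 fell, and 13 had a log2 fold change above 0. An unadjusted p below 0.05 was found for 8 genes above vehicle and for 0 below it, and the median log2 fold change was 0.43. The members that did not pass the threshold included *Clu*, which encodes the chaperone clusterin (log2 fold change 0.43, edgeR FDR = 0.351), and *C1s1*, a protease of the first complement component (0.54, FDR = 0.465). Of the other serum amyloid genes, *Saa2* was at 10.5, 5.98 and 7.11 CPM with CBD and at 4.74, 1.69 and 4.46 CPM with vehicle (1.09, FDR = 0.467), and *Saa1* at 2.51 ± 1.07 CPM against 1.61 ± 1.11 CPM (0.59, FDR = 0.882). The central complement protein *C3* was at 140, 107 and 88.2 CPM against 69.9, 84.7 and 102 CPM, so that its groups overlapped (0.40, FDR = 0.538). *Cp* (ceruloplasmin) and *Ptx3* (pentraxin 3) had log2 fold changes of 0.00 and −0.01. Summed over the list, the level was 2061 to 2796 CPM with CBD and 1530 to 1702 CPM with vehicle, without overlap. This sum includes the called genes *Saa3*, *Il1rn* and *Lcn2*, with *Saa3* as its most abundant tested member, and a sum without them was not taken.

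*Cxcl5* (ENSMUSG00000029371, chromosome 5, 90759360 to 90761624), a chemokine that attracts neutrophils, was at 47.7, 35.1 and 29.6 CPM with CBD and at 22, 17.2 and 16.5 CPM with vehicle. The groups did not overlap, and the spread was wider with CBD (edgeR FDR = 0.0872, log2 fold change 1.004 with a standard error of 0.21). Of 15 chemokines and cytokines tested, *Cxcl5* alone passed the threshold, 10 lay above vehicle, and the median was 0.39. *Cxcl12*, the stromal chemokine that retains progenitor cells, was at 2107, 1976 and 1600 CPM against 1579, 1203 and 1369 CPM (0.45, edgeR FDR = 0.314), and A27 lay just above the highest vehicle library. *Cxcl1*, another neutrophil attractant, was at 42.1, 32.6 and 21.3 CPM against 26.1, 14.5 and 15.1 CPM (0.77, FDR = 0.523). The growth factor *Tgfb1* had the opposite sign at a low level (−0.75, FDR = 0.556), *Ccl2* had a log2 fold change of −0.20, and *Tnf* and *Il1a* had 0 reads. Among 21 tested subunits, inhibitors and feedback genes of NF-kB, none had an unadjusted p below 0.05 (0 of 21), and the median was 0.09.

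*Mmp13* (ENSMUSG00000050578, chromosome 9, 7272514 to 7283331), a collagenase that cleaves fibrillar collagen, was at 612, 571 and 392 CPM with CBD and at 339, 244 and 285 CPM with vehicle. A27 was again the lowest CBD library and lay above the highest vehicle library, A28 (edgeR FDR = 0.0281, log2 fold change 0.86 with a standard error of 0.16). Of 16 tested metalloproteinases and inhibitors, 1 rose, 0 fell and the median was 0.07. *Adamts1*, a protease of proteoglycans, was at 578, 469 and 391 CPM against 368, 255 and 337 CPM (0.58, edgeR FDR = 0.348), and *Mmp11* (stromelysin 3) at 83.7, 62.3 and 42.4 CPM against 44.6, 36.5 and 42.9 CPM (0.61, FDR = 0.38). Beside these, *Mmp3* (stromelysin 1) had a log2 fold change of 0.34 (FDR = 0.598), and the inhibitors *Timp1* and *Timp2* had values of −0.07 and −0.01. Among the substrates, 0 of 19 collagen chains passed the threshold (median −0.03), and *Col6a3* was the chain with the smallest p (−0.39, FDR = 0.465).

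*Dusp1* (ENSMUSG00000024190, chromosome 17, 26505590 to 26562128), the phosphatase that inactivates p38, JNK and ERK in the nucleus, was at 97.6, 98.9 and 67.7 CPM with CBD and at 49.1, 41.2 and 41.2 CPM with vehicle. The lowest CBD library, A27, lay above all vehicle libraries (edgeR FDR = 0.0281, log2 fold change 1.004 with a standard error of 0.18). In GENCODE M21 the locus overlaps 4 other genes. On the same strand these are a sense-intronic transcript (1853 bases) and a processed pseudogene (227 bases), and on the other strand the processed pseudogene *Gm8225* (956 bases) and *Ergic1* (640 bases). Of 17 MAPK feedback genes tested, 1 rose and the median was 0.06. *Dusp5* (0.49, edgeR FDR = 0.57) and *Dusp6* (0.56, FDR = 0.543), both phosphatases of ERK, had an unadjusted p below 0.05. The ERK inhibitors *Spry2* (−0.33, FDR = 0.743) and *Spry4* (−0.55, FDR = 0.867) overlapped vehicle, and *Spry4* was low, with a mean of 2.84 CPM. Among 20 immediate-early transcription factors, none passed the threshold (0 of 20, median −0.01). *Ier2* was at 52.4, 47.3 and 46.9 CPM against 35.8, 28 and 28.8 CPM (0.66, FDR = 0.263), *Junb* at 245, 263 and 216 CPM against 211, 158 and 155 CPM (0.46, FDR = 0.517), and *Klf4* at 40.5, 46.6 and 58.6 CPM against 59.5, 71.9 and 66.6 CPM (−0.44, FDR = 0.517).

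**Figure D1:**
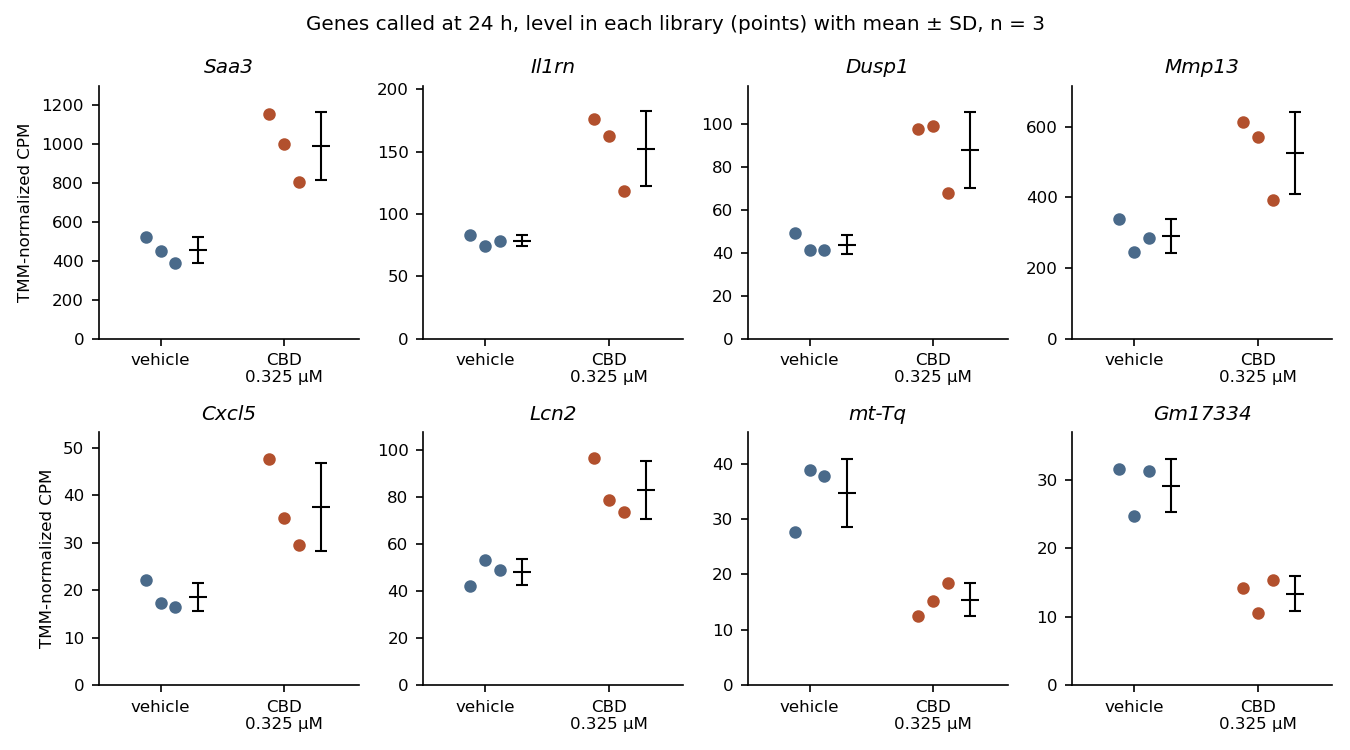
Level of the 8 called genes after 24 h in TMM-normalized CPM on a linear axis from 0, with vehicle libraries in blue (A28, A29, A30 from left to right), libraries with 0.325 µM of CBD in red (A25, A26, A27 from left to right) and black bars for mean ± SD (n = 3). *Saa3* runs from 805 to 1154 CPM with CBD and from 388 to 522 CPM with vehicle, and the groups do not overlap in any of the 8 panels.

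Both genes that fell were low. *mt-Tq* (ENSMUSG00000064343, mitochondrial genome, 3772 to 3842), the mitochondrial tRNA for glutamine, was at 12.5, 15.2 and 18.5 CPM with CBD and at 27.7, 38.8 and 37.7 CPM with vehicle. The highest CBD library lay below the lowest vehicle library (edgeR FDR = 0.0952, log2 fold change −1.17 with a standard error of 0.25). It shares 3 bases with *mt-Ti* on the other strand. Reads came from polyadenylated transcripts, and whether those on *mt-Tq* stem from the mature tRNA was not tested. *Gm17334* (ENSMUSG00000091191, chromosome 11, 53772281 to 53773187), a predicted protein-coding gene, was at 14.1, 10.5 and 15.4 CPM with CBD and at 31.5, 24.6 and 31.2 CPM with vehicle (−1.13, standard error 0.24, FDR = 0.0952). In GENCODE M21 all of its 907 bases lie on the other strand of *Irf1*, the gene of an interferon-regulatory factor, and the strand setting of the read counting is not given in the sources used here, so that reads of both genes cannot be told apart. *Irf1* itself was at 79.3 ± 10.9 CPM with CBD and 72.7 ± 6.33 CPM with vehicle (0.12, FDR = 0.912).

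Other transcripts of the mitochondrial genome had the same sign as *mt-Tq*. Of 15 rRNA and protein genes, 10 were tested and all 10 had a log2 fold change below 0, from −1.93 to −0.14, with a median of −0.28. None of the 10 passed the threshold, and 5 had an unadjusted p below 0.05. *mt-Nd4*, a membrane subunit of complex I, was at 24824, 20211 and 20975 CPM with CBD and at 25392, 27088 and 39918 CPM with vehicle, so that A25 and A28 lay near each other and A30 stood highest (−0.49, edgeR FDR = 0.267). *mt-Nd5*, another subunit of complex I, was at 1031, 982 and 1149 CPM against 1213, 1262 and 1384 CPM (−0.29, FDR = 0.446). *mt-Nd3* was at 4.93, 1.25 and 1.14 CPM against 6.16, 6.75 and 16.5 CPM, and *mt-Rnr1*, the small ribosomal RNA of mitochondria, had a log2 fold change of −0.33 (FDR = 0.466). The nuclear subunits of complex I lay on the other side of 0, with 24 of 35 tested genes above it, a median of 0.10 and 0 genes past the threshold.

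The share of reads on mitochondrial genes was 7.56%, 7.10% and 7.34% in A25, A26 and A27, and 8.52%, 8.43% and 9.82% in A28, A29 and A30. The share of uniquely mapped reads outside genes was 19.4% ± 0.266 (SD, n = 3) with CBD and 21.4% ± 0.714 (SD, n = 3) with vehicle, without overlap (difference −2.002 percentage points, exact two-sided permutation p = 0.1, the smallest p that 3 libraries against 3 can give). Both shares moved with the groups compared. With the mitochondrial genes left out of the fit, 6 genes were called, the 6 that rose, and *Gm17334* had a log2 fold change of −1.13 with an edgeR FDR of 0.1034. In a fit that included the share outside genes, 0 genes passed the threshold and 606 had an unadjusted p below 0.05 (edgeR). In that fit the log2 fold changes of the 6 genes that rose lay between 0.93 and 1.19 and those of *mt-Tq* and *Gm17334* were −1.12 and −0.85, while the FDR was 0.918 for *Saa3* and 0.962 for the other 7 genes. Since the covariate separates the 2 groups almost fully, group and share cannot be told apart in it.

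**Figure D2:**
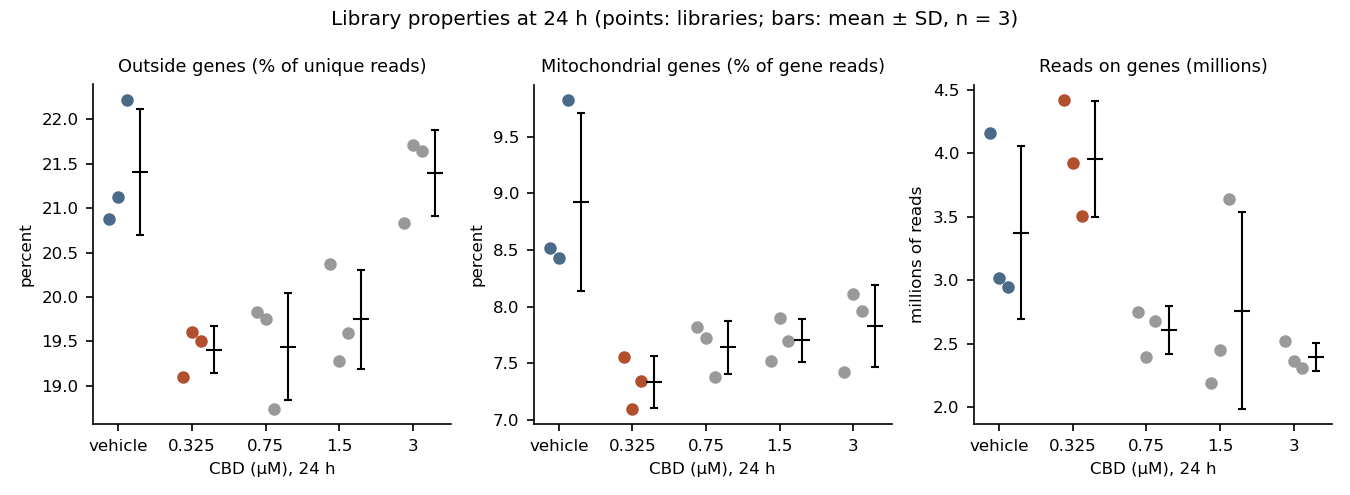
Library properties at 24 h in 3 panels, namely reads outside genes in percent of uniquely mapped reads, reads on mitochondrial genes in percent of reads on genes, and the number of reads on genes, for vehicle and 4 doses of CBD, with points for libraries and black bars for mean ± SD (n = 3), on axes that do not start at 0. The CBD 0.325 µM libraries (red) lie between 19.1% and 19.6% in the first panel and the vehicle libraries (blue) between 20.9% and 22.2%, a range in which the 3 µM libraries lie as well.

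The 5 genes nearest to the threshold on its other side were *Amotl2*, *C030006K11Rik*, *Ppp1r3c*, *Flywch1* and *Tead3*. *Amotl2*, an angiomotin that holds the co-activator YAP at cell junctions, was at 221, 220 and 161 CPM with CBD and at 133, 117 and 115 CPM with vehicle, and missed the threshold narrowly (edgeR FDR = 0.1004, log2 fold change 0.71 with a standard error of 0.15). *Tead3*, a DNA-binding partner of YAP, was at 27.5, 29.2 and 34.7 CPM against 48.6, 45.6 and 55.2 CPM (−0.71, FDR = 0.17). The groups did not overlap in either gene, and the signs were opposite. *Ppp1r3c*, which targets a phosphatase to glycogen, was at 31.1, 19.4 and 25.9 CPM against 15.9, 9.45 and 9.26 CPM (1.11, FDR = 0.16). *Flywch1*, a zinc finger gene, was at 54.0, 65.8 and 79.4 CPM against 118, 105 and 113 CPM (−0.76, FDR = 0.16). *C030006K11Rik* was at 9.63, 9.72 and 10.8 CPM against 24.9, 22.3 and 16.8 CPM (−1.09, FDR = 0.102).

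Of the 23 Hippo pathway genes and YAP targets tested, none passed the threshold, 4 above and 1 below vehicle had an unadjusted p below 0.05, and the median was 0.04. Beside *Amotl2*, those above were *Amot* (0.43, edgeR FDR = 0.579), the kinase *Lats2* (0.42, FDR = 0.567) and the YAP target *Ankrd1* (0.42, FDR = 0.574). The gene below was *Tead3*. The YAP target *Ccn2* had a log2 fold change of −0.56 (FDR = 0.622), with an unadjusted p above 0.05. Among 10 RGS proteins, which speed up the shut-off of G protein signals, 8 lay above 0, with a median of 0.28 and no gene past the threshold. *Rgs4* was at 94.5, 75.0 and 62.6 CPM against 54.8, 48.6 and 56.9 CPM (0.54, FDR = 0.291), and *Rgs16* was at 8.28, 13.5 and 8.25 CPM against 5.69, 2.7 and 6.52 CPM (0.99, FDR = 0.50). Among 23 contractile and stress-fibre genes, *Mylk*, the kinase that switches on non-muscle myosin, was at 371, 308 and 296 CPM against 228, 239 and 245 CPM, with a range within vehicle that was smaller than the gap between the groups (0.45, FDR = 0.206), while the median of the list was 0.05.

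The study's gene lists by dose hold 30 genes for this dose and time. They were drawn from the same libraries, so that the values below are no independent evidence, and all directions are given as CBD minus vehicle by the treatment labels. Of the 30 genes, 18 lay above vehicle, 17 of them without overlap, and 12 lay below it, 11 of them without overlap. Over all genes tested, 6.59% lay wholly above vehicle and 6.66% wholly below it. By the edgeR test used here, 5 of the 30 passed the threshold (*Saa3*, *Il1rn*, *Dusp1*, *Mmp13* and *Lcn2*). The study called its genes with DESeq2, so that the tests differ. The number of genes called in these data depended on the test, and it was 30 with DESeq2. *Naca*, which encodes a subunit of the complex that shields nascent chains on ribosomes, was at 375, 288 and 246 CPM against 207, 186 and 188 CPM (edgeR FDR = 0.17). *Rraga*, a GTPase that signals amino acids to mTORC1, was at 271, 216 and 182 CPM against 168, 112 and 140 CPM (log2 fold change 0.67, FDR = 0.267). *Ldhb*, the lactate dehydrogenase of oxidative tissues, was at 108.8, 83.7 and 84.2 CPM against 63.5, 61.4 and 60.7 CPM (0.58, FDR = 0.254). *Npr3*, the clearance receptor of natriuretic peptides, was at 210, 175 and 207 CPM against 140, 151 and 157 CPM (0.41, FDR = 0.322). In these 4 genes the CBD libraries spread more widely than the vehicle libraries, without reaching them.

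On the lower side of that list, *Aldh2*, the mitochondrial aldehyde dehydrogenase that oxidizes acetaldehyde, was at 184, 210 and 251 CPM with CBD and at 263, 337 and 347 CPM with vehicle (edgeR FDR = 0.291, log2 fold change −0.55 with a standard error of 0.15). The groups did not overlap, with A27 and A28 nearest to each other. *Ifitm2*, an interferon-induced membrane protein that hinders virus entry, was at 82.4, 97.4 and 108 CPM against 124, 134 and 160 CPM (−0.53, FDR = 0.267). *Clpb*, a disaggregase of mitochondria, was at 56.0, 49.6 and 51.8 CPM against 67.3, 89.8 and 76.2 CPM (−0.56, FDR = 0.23). *Nr2f2*, an orphan nuclear receptor, was at 335, 332 and 343 CPM against 424, 406 and 477 CPM (−0.37, FDR = 0.352), with the CBD libraries close together. *Gm2000*, *Gm10051* and *Gm8960* had log2 fold changes of −0.80, −0.74 and −0.74 (FDR = 0.17, 0.254 and 0.263), and reads that also map to other copies of such genes were not counted.

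Among the larger differences with an unadjusted p below 0.01, without overlap and with a mean of at least 5 CPM, the 10 largest were at low levels, and 9 of them lay below vehicle. *Gm43581* was at 7.84, 5.48 and 4.84 CPM against 15.6, 16.2 and 13.7 CPM (log2 fold change −1.31, edgeR FDR = 0.17). *Adam9*, a membrane-bound shedding protease, was at 2.69, 2.74 and 4.55 CPM against 7.59, 7.43 and 13.4 CPM (−1.50, FDR = 0.31), and *Usp27x*, a deubiquitinase, was at 12.5, 7.73 and 6.54 CPM against 5.45, 3.38 and 2.40 CPM (1.21, FDR = 0.413). None but *mt-Tq* passed the threshold.

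In total 37 gene lists with 732 different tested genes were described, and 4 of them held a called gene. The medians of the other 33 lay between −0.28 and 0.33. Cytosolic ribosomal proteins leaned upward, with 54 of 78 above 0 and a median of 0.10. An unadjusted p below 0.05 was found for 12 members above vehicle and for 3 below it, such as *Rps20* (log2 fold change −0.26, edgeR FDR = 0.551). Their summed level was 72725 to 77520 CPM with CBD and 69600 to 72698 CPM with vehicle, and the nearest libraries of the groups, A27 and A29, almost met. In the integrated stress response, 18 of 25 genes lay below 0 (median −0.13). Its transcription factors *Atf4* and *Atf5* were at 335, 341 and 381 CPM against 339, 466 and 503 CPM (−0.31, FDR = 0.551) and at 112, 124 and 162 CPM against 144, 196 and 213 CPM (−0.48, FDR = 0.466). The C/EBP factor *Cebpb*, counted in the same list and known to activate acute-phase genes, was at 56.6, 53.6 and 58.3 CPM against 66.6, 80.0 and 98.1 CPM (−0.53, FDR = 0.393). Genes of SR proteins and splicing regulators lay below 0 in 24 of 34 cases (median −0.14), among them *Arglu1* (−0.39, FDR = 0.352) and *Son* (−0.26, FDR = 0.551), with *Ythdf1*, a reader of methylated adenosine in mRNA, on the other side (0.45, FDR = 0.314).

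Of 25 NRF2 targets, 19 lay below 0 (median −0.05), but 3 above and 3 below vehicle had an unadjusted p below 0.05. Their summed level was 7582 to 8173 CPM with CBD and 6645 to 8113 CPM with vehicle, with overlap. *Tkt*, the transketolase of the pentose phosphate pathway, was at 54.2, 56.8 and 70.8 CPM against 83.0, 78.3 and 99.8 CPM (log2 fold change −0.52, edgeR FDR = 0.352), and the heme oxygenase gene *Hmox1* was at 29.8, 31.4 and 37.0 CPM against 41.0, 41.9 and 55.9 CPM (−0.50, FDR = 0.50), while *Fth1* and *Prdx1* were at 0.22 and 0.28. Of 23 p53 genes and targets, 11 lay above 0 and 12 below it (median −0.05). Of them, 3 lay below vehicle with an unadjusted p below 0.05, namely *Phlda3* (−0.40, FDR = 0.517), *Sesn1* (−1.02, FDR = 0.517) and *Bax* (−0.72, FDR = 0.586), and 0 above it. Of all genes tested, 4.51% were lower at that p. *Sesn1* and *Bax* were low, with means of 6.24 and 10.1 CPM. *Cdkn1a* (−0.05, FDR = 0.954), *Mdm2* (0.17, FDR = 0.829) and *Bbc3* (0.14, FDR = 0.874) lay near 0. Interferon-stimulated genes were split, with *Ifit3* at 24.6, 20.4 and 20.5 CPM against 15.6, 9.12 and 10.3 CPM (0.88, FDR = 0.351) and *Ifitm2* on the opposite side, and a median of −0.02. Enzymes of sterol and fatty acid synthesis had a median of 0.01, and *Hmgcs1*, the synthase at the entry of the pathway, was at 77.5, 72.3 and 79.6 CPM against 59.5, 56.0 and 54.5 CPM (0.43, FDR = 0.465). No member of these lists passed the threshold.

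**Figure D3:**
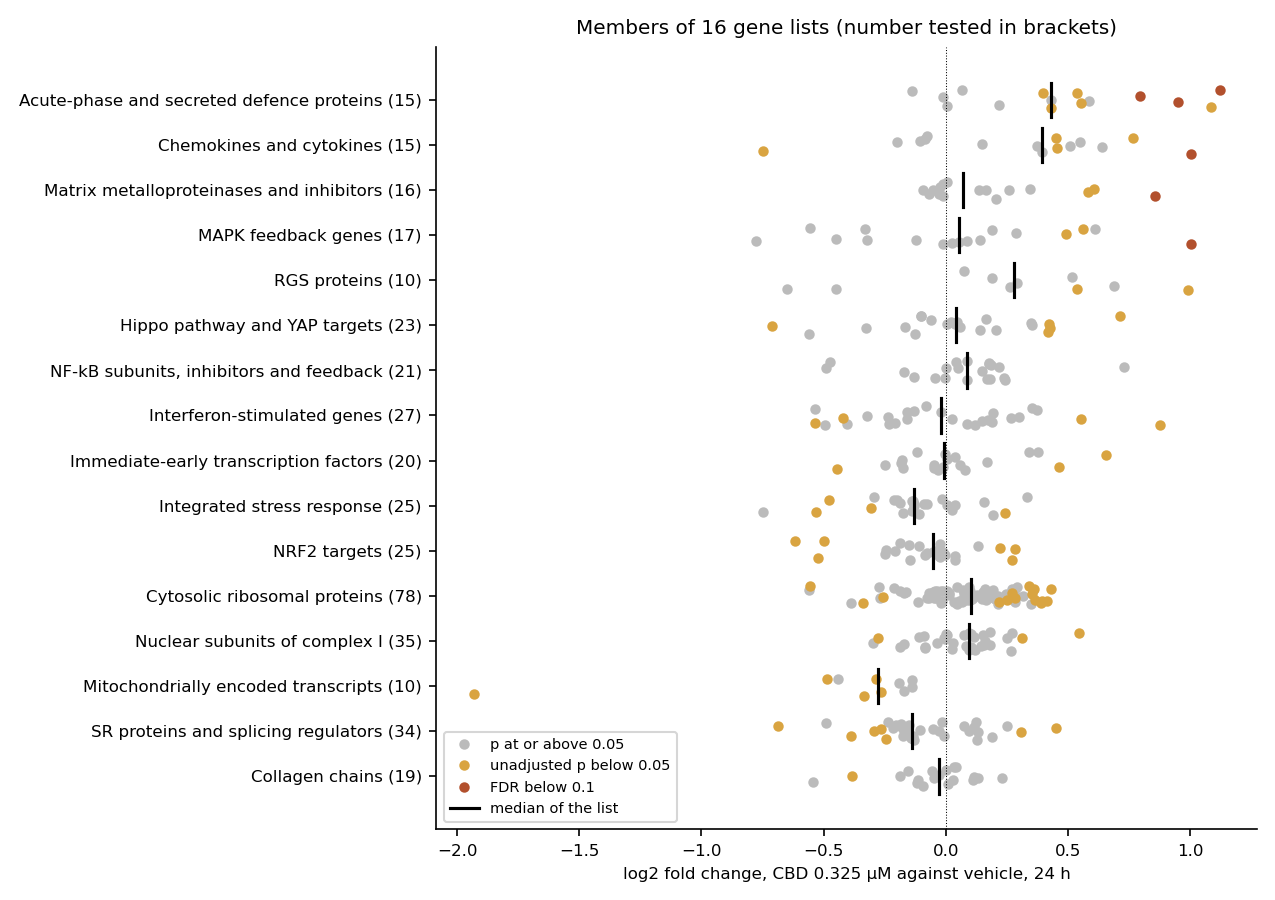
Log2 fold change of CBD 0.325 µM against vehicle after 24 h (horizontal axis) for the tested members of 16 gene lists (rows, with the number tested in brackets), with points for genes coloured by the edgeR test and a black line for the median of each list. The medians of acute-phase genes (0.43) and chemokines (0.39) are farthest to the right, and that of mitochondrially encoded transcripts (−0.28) is farthest to the left. The lists were chosen with earlier results of these data known.

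Proposed targets of CBD and genes of the endocannabinoid system were mostly too low to be tested. Of 35 such genes, 13 had 0 reads in the 6 libraries, among them the cannabinoid receptors *Cnr1* and *Cnr2*, *Gpr55*, the channels *Trpv1* and *Trpm8* and the serotonin receptor *Htr1a*, and 11 had enough reads to be tested. None of the 11 passed the threshold. *Ppard*, a fatty acid receptor of the nucleus, was at 26.6, 24.7 and 23 CPM against 33.7, 34.8 and 41.5 CPM (log2 fold change −0.56, edgeR FDR = 0.38). *Fabp5*, an intracellular carrier of fatty acids and of anandamide, was at 93.8, 86.5 and 73.4 CPM against 72.5, 56.0 and 51.8 CPM (0.49, FDR = 0.444), and *Faah*, the enzyme that breaks down anandamide, was at 0.67 (FDR = 0.766). Of 33 hypothalamic peptides and feeding receptors, 14 had 0 reads, with *Pomc*, *Npy*, *Cartpt* and *Mc4r* among them, and 10 were tested. *Socs3*, the inhibitor of leptin and interleukin-6 signals, was at 51.9, 52.3 and 36.1 CPM against 44.3, 25.3 and 27.4 CPM (0.52, FDR = 0.551), and *Igf1r* at 207, 212 and 189 CPM against 237, 251 and 230 CPM (−0.24, FDR = 0.579). *Maoa*, which degrades serotonin, was at 57.8, 74.5 and 57.7 CPM against 51.4, 40.5 and 46.0 CPM (0.46, FDR = 0.466).

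To see where the lowest dose differed from the others at 24 h, it was compared directly with them, without the vehicle. Against the mean of 0.75 and 1.5 µM, 1 gene of 12118 (0.00825%) differed. This was *Elp6* (ENSMUSG00000054836, chromosome 9, 110305173 to 110322102), a subunit of the Elongator complex that modifies tRNA. Its level was 22.8, 24.4 and 32.7 CPM at 0.325 µM, 63.1 to 92.7 CPM at 0.75 µM and 67.2 to 85.0 CPM at 1.5 µM, so that no library of the lowest dose reached the others (log2 difference −1.55, standard error 0.22, edgeR FDR = 0.0013). With the log2 read total as a covariate the difference was −1.52 and was not called (edgeR FDR = 0.447), and it was called in the other 17 of 18 alternatives. At 0.325 µM it overlapped the vehicle, which was at 28, 28 and 34.3 CPM (log2 fold change −0.18, FDR = 0.901). After 6 h *Elp6* was higher in both groups, at 181, 169 and 125 CPM with vehicle and at 140, 139 and 92.2 CPM with 0.325 µM. The difference between the vehicle groups of the times was not tested. For the 8 called genes the log2 differences between 0.325 µM and these doses lay between −0.51 (*mt-Tq*) and 0.22 (*Lcn2*), each with an edgeR FDR of 0.997, which does not show that the doses acted alike. For *Saa3* the difference was 0.08 (standard error 0.13).

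Against 3 µM, 964 genes differed from 0.325 µM (7.96%), 395 higher and 569 lower at the lower dose. *Elp6* was at 65.3 to 178 CPM at 3 µM (log2 difference −2.11, standard error 0.24, edgeR FDR = 2.3e-05). Of the 6 genes that rose against vehicle, 4 were also higher at 0.325 µM than at 3 µM, namely *Mmp13* (0.69, FDR = 0.0169), *Saa3* (0.61, FDR = 0.0239), *Cxcl5* (0.78, FDR = 0.0391) and *Il1rn* (0.51, FDR = 0.064). Among all genes tested, 395 of 12118 were higher. Both comparisons use A25, A26 and A27, by whose levels the called genes, *mt-Tq* included, were chosen. A chance deviation of these libraries would enter both, so the calls against 3 µM are no independent evidence. *Saa3* was at 510 to 798 CPM at 3 µM, below the 805 CPM of A27, and *Cxcl5* at 18.8 to 23.5 CPM, below its 29.6 CPM. *Dusp1* and *Lcn2* had log2 differences of 0.48 (FDR = 0.132) and 0.40 (FDR = 0.168). *mt-Tq* was lower at 0.325 µM (−1.38, FDR = 0.0049), and *Gm17334* was not called (−0.07, FDR = 0.916). Besides *Elp6*, the smallest p-values belonged to the small heat shock protein *Hspb1* (1.03, FDR = 0.000939), the arginine methyltransferase *Prmt1* (−1.22, FDR = 0.0021), the processed pseudogene *Gm44703* (−1.43, FDR = 0.0021) and a gene without a name in the annotation used, ENSMUSG00000119584 (−1.24, FDR = 0.000939). This count changed with the covariates and with single libraries. The number of genes was 1 with the log2 read total as a covariate, 14 with the share outside genes in the fit (20.8% to 21.7% at 3 µM) and 57 with only both groups in the fit. In both covariate fits 0 genes were higher at 0.325 µM, so that the calls of *Mmp13*, *Saa3*, *Cxcl5* and *Il1rn* against 3 µM were lost. It was 99 without A26, 148 without A25, 176 without A16, 299 without A18 and 1910 without A17.

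All 24 h doses share A28, A29 and A30 as their control, and a chance deviation of these would enter each comparison, so the values are only given side by side. The log2 fold changes of *Saa3* were 1.12, 1.05, 1.04 and 0.51 from the lowest dose (0.325 µM) to the highest (3 µM). Those of *Il1rn* were 0.95, 0.998, 0.75 and 0.45, and those of *Mmp13* 0.86, 0.78, 0.79 and 0.17. *Dusp1* was at 1.004, 0.84, 1.09 and 0.52, *Cxcl5* at 1.004, 0.98, 0.84 and 0.23, and *Lcn2* at 0.79, 0.70, 0.44 and 0.39. In the genes that fell, *mt-Tq* was at −1.17, −0.60, −0.72 and 0.21, and *Gm17334* at −1.13, −1.08, −0.65 and −1.06. *Elp6* was at −0.18, 1.35, 1.39 and 1.93.

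**Figure D4:**
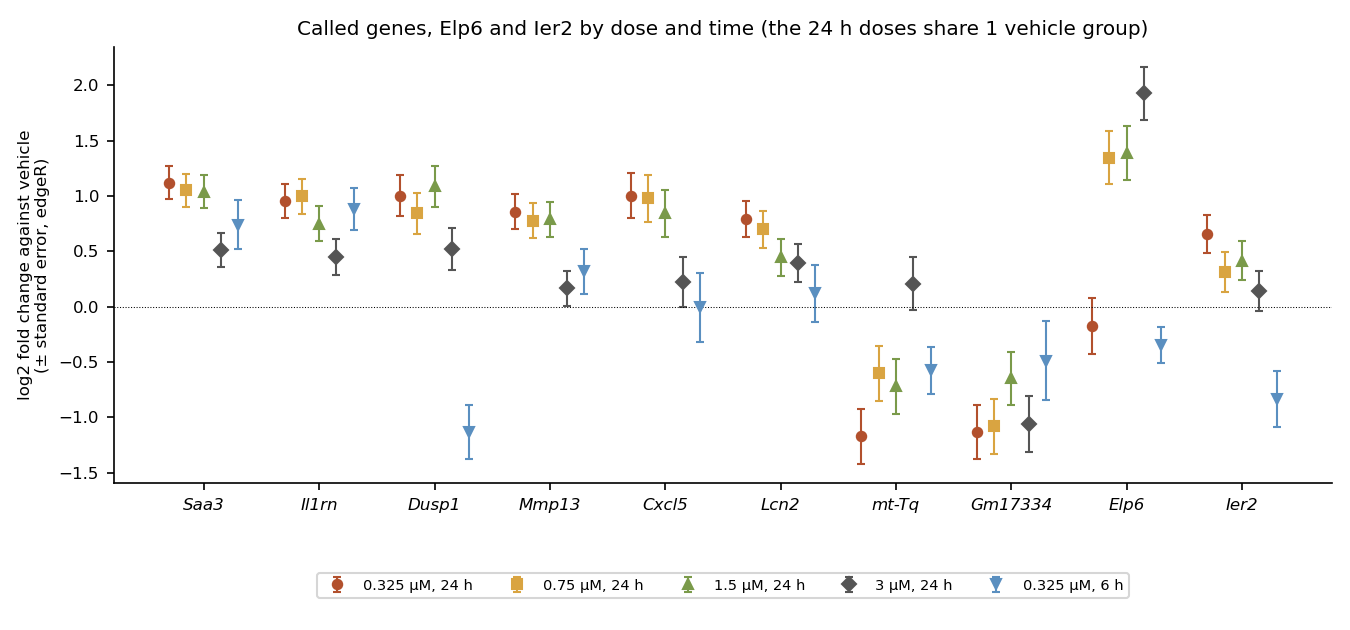
Log2 fold change against vehicle (vertical axis, edgeR, bars for the standard error) of the 8 called genes, *Elp6* and *Ier2* at 4 doses after 24 h and at 0.325 µM after 6 h. *Elp6* is at −0.18 at 0.325 µM and at 1.35 to 1.93 at the higher doses, and *Dusp1* is at 1.004 after 24 h and at −1.13 after 6 h.

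The change at 0.325 µM was also compared between the times, with separate vehicle libraries at 6 h (A1, A2 and A3) and the CBD libraries A13, A14 and A15. The difference of the changes passed the threshold in 2 of 12790 genes (0.0156%), *Dusp1* and *Ier2*. At 6 h *Dusp1* was at 61.6, 30.8 and 64.7 CPM with CBD and at 112, 85.4 and 142 CPM with vehicle, all CBD libraries being below vehicle (log2 fold change −1.13, edgeR FDR = 0.0654), whereas all were above vehicle after 24 h. The difference between the times was 2.14 (standard error 0.32, FDR = 0.0011). The early-response gene *Ier2* was at 20.7, 13.4 and 25.8 CPM against 27.8, 30.4 and 46.1 CPM at 6 h (−0.84, FDR = 0.227) and had a log2 fold change of 0.66 at 24 h, a difference of 1.50 (standard error 0.30, FDR = 0.0788).

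The next genes by p had a difference of the same sign without passing the threshold. They were *Junb* (log2 difference 1.29, edgeR FDR = 0.123), *Gadd45g*, a stress sensor of p38 signalling (1.33, FDR = 0.123), and the ubiquitin-like *Isg15* (2.46, FDR = 0.123). *Junb* was at 153, 88.3 and 112 CPM against 200, 164 and 259 CPM at 6 h (−0.83, FDR = 0.0572). *Isg15* was at 2.78, 4.34 and 4.37 CPM against 15, 22.9 and 14.2 CPM at 6 h (−2.16, FDR = 0.0333) and overlapped the vehicle at 24 h (0.30, FDR = 0.874). Of the other called genes, *Il1rn* was at 60.8, 80.1 and 76.5 CPM against 46.2, 38.4 and 34.2 CPM at 6 h, with all CBD libraries above vehicle at both times (0.88, FDR = 0.0664, difference 0.07, FDR = 0.978). *Saa3* was at 345, 392 and 313 CPM against 165, 164 and 291 CPM (0.74, FDR = 0.213), with the vehicle library A3 near the CBD libraries, and its difference between the times was 0.38 (FDR = 0.863). *Cxcl5* and *Lcn2* were at −0.01 and 0.12 at 6 h, with differences of 1.03 (FDR = 0.613) and 0.68 (FDR = 0.744).

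How far the 8 calls rest on single libraries was examined by leaving out each of the 6 in turn. *Saa3* passed the threshold in all 6 of these fits, with a log2 fold change between 0.99 and 1.25 over all alternatives. It was the 1 gene left without A25, without A26, without A29 or without A30. Without A27, which had the lowest CBD level of each of the 6 genes that rose, the number of genes was 46, 23 of them higher and 23 lower, and without A28 it was 10. *Il1rn*, *Dusp1*, *Mmp13*, *Cxcl5* and *mt-Tq* passed the threshold without A27 and without A28, and *Lcn2* and *Gm17334* without A27 only. In no fit did any of the 8 change its sign.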

How the data were processed

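Count values were taken as the authors deposited them, raw reads per Ensembl gene in 1 table per library. According to the methods, the authors trimmed reads with Flexbar, mapped them with STAR (2.7.5c) to GRCm39 and counted with HTSeq (1.99.2); FastQC (0.11.9) and DESeq2 (3.16) also stand in the submitters' processing notes. Reads with several alignments were not counted on genes, so levels of genes with near copies are incomplete.

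The 15 libraries of 24 h were fitted with edgeR 4.0.16 in R 4.3.3 (filterByExpr on the groups, TMM, quasi-likelihood F-test, Benjamini-Hochberg FDR below 0.1 over 12118 genes), and all 30 libraries for the difference between times (12790 genes). The common biological coefficient of variation at 24 h was 0.150. Replicates are libraries with the same label, and p-values measure only the spread between them. Levels are TMM-normalized CPM, those of both times scaled over 30 libraries. The floor of 3 reads covers counting error only. Symbols and positions came from GENCODE M21 (GRCm38), which names 51948 of 56941 genes.

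Genes named are all called genes, the 5 next by FDR, the 10 largest differences at p below 0.01, the genes the study lists, list members with an unadjusted p below 0.05 or high levels, and the 5 smallest p of each other comparison. *Irf1*, further list members and marker genes were named after their values were seen. Members and lists were chosen with earlier results of these data known. Steps were tested on simulated data. Alternatives were DESeq2 1.42.0, RLE, no filter, at least 10 reads in every library, mitochondrial genes left out, 2 covariates, other sets of libraries and each library left out.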

Additional observations from a re-analysis of the deposited data

Results flagged for a closer look

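The change from vehicle to 0.325 µM of CBD differed between 24 h and 6 h by a test of the difference itself in 2 genes. For *Dusp1*, the log2 change at 24 h minus that at 6 h was 2.142 (edgeR FDR = 0.0011), and it passed the threshold in all 20 alternatives, the 12 that leave out a library included. For *Ier2*, the difference was 1.502 (edgeR FDR = 0.0788), and it passed the threshold in 11 of 20 alternatives and in 6 of the 12 that leave out a library, those without A1, A2, A13, A15, A27 or A28. The CBD libraries of *Dusp1* lay below all vehicle libraries at 6 h and above all of them at 24 h. The cells of both times were separate cultures with separate vehicle libraries, and a cause was not tested.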

How the results depend on the processing

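The number of genes called at 0.325 µM against vehicle, 8 of 12118, was 30 with DESeq2 (FDR over 3737 genes) and 79 without a filter on low counts (25432 genes). It was 0 with the share outside genes in the fit (606 with an unadjusted p below 0.05). With all 30 libraries it was 2, and without library A16 of the 3 µM group it was 19. With the log2 read total as a covariate it was 5. Of the 8, *Saa3*, *Il1rn*, *Dusp1* and *Lcn2* kept the call in that fit, and *Gm43581* was called as well (edgeR FDR = 0.0917). *Mmp13* (FDR = 0.2035), *Cxcl5* and *mt-Tq* (FDR = 0.377 for both) and *Gm17334* (FDR = 0.291) lost the call. Leaving out 1 of the 6 libraries gave 1 to 46 genes, with 1 without A25, A26, A29 or A30 and 46 without A27. Against the mean of 0.75 and 1.5 µM, the 1 gene became 5 with no filter and with only the groups compared, and 0 with the log2 read total as a covariate (448 with an unadjusted p below 0.05), where *Elp6* had a log2 difference of −1.52 and an edgeR FDR of 0.447; each library left out gave 1 gene. Against 3 µM, the 964 genes became 14 with the share outside genes in the fit, 1 with the log2 read total, 57 with only the groups compared, 578 with all 30 libraries, and 99 to 1910 with a library left out (lowest without A26, highest without A17). The 2 genes of the difference between times became 38 with no filter, 1 with the log2 read total and 1 with only the groups compared, and 1 to 11 with a library left out (11 without A1, 8 without A2 or A13, 1 without A14, A25, A26, A29 or A30). The difference in the share of reads outside genes was −2.07 percentage points with ambiguous reads left out. The cause of these shifts was not tested. Of 124 refits of the 8 genes, 74 kept the call, 50 lost it and 0 changed the sign. No paired analysis was possible because each library has a number of its own and none recurs in another group. With 3 libraries a group, genes at a few CPM could be called at large differences only.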
